A study of Mus musculus with 8 samples.

Results

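Bcl6, Prdm1 and Bhlhe40 encode transcriptional repressors that are tied to cytokine signalling in lymphocytes. Their RNA was followed in mouse T-cell progenitors with and without CRISPR disruption of both STAT5 genes. The 3 genes were chosen by their function from the 24506 gene symbols of the count table, and chosen with the values measured in these same 8 libraries already known. Their levels and differences are therefore given as a description with no test of their own. All 3 were found in the table, and all 3 were among the 13775 genes kept for fitting.

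The libraries came from bone-marrow progenitors of B6 mice that carried Cas9, a Bcl2 transgene and an mCherry reporter on both alleles of Bcl11b, a gene whose activation marks commitment to the T lineage. Cells of every group were held overnight with IL-7, Flt3 ligand and SCF, received guide RNAs by retrovirus, and grew for 6 days on OP9-DLL1 stromal cells. These cells present the Notch ligand DLL1, and the medium held 10 ng/ml of both IL-7 and Flt3 ligand. The guides were either control guides, whose targets are not given in the sources used here, or 3 guides against Stat5a together with 3 against Stat5b (sgStat5). Lineage-negative, infected, CD25-positive cells were then sorted without mCherry (pre-commitment) or with it (post-commitment), and each of the 4 groups holds 2 libraries. The series text also calls the mCherry-positive cells reporter negative, but Bcl11b RNA was higher in both post-commitment libraries than in both pre-commitment libraries of each guide arm. Disruption is a property of a guide-treated pool, not of a clone, and whether the replicates are separate cultures or animals is not stated, so the spread between replicates may be technical.

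BCL6 is a BTB zinc-finger protein that recruits corepressors such as NCOR1 and BCOR, and in germinal-centre B cells and follicular helper T cells it holds back the gene for its antagonist Blimp-1. Blimp-1, the product of Prdm1, is a PR-domain zinc-finger repressor that drives plasma-cell differentiation and restrains effector and memory T cells. BHLHE40, also called DEC1, is a basic helix-loop-helix repressor that binds E-boxes, takes part in circadian feedback and in T cells limits Il10. STAT5 transmits signals from IL-7 and IL-2, binds a short palindrome related to the element that BCL6 recognises, and is known in other lymphocytes to hold down Bcl6 and to support Prdm1.

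Upstream sequence is shown for the genes that have an entry among the RefSeq promoter windows (GRCm38.p6), because STAT5 and BCL6 bind related elements and Bcl6 RNA differed with STAT5. Bhlhe40 has no such entry, so its upstream sequence was not searched. Each run is the 250 bases before a start site, read 5′ to 3′ on the gene's own minus strand. Capitals mark matches to the STAT5 palindrome TTCNNNGAA and to the E-box CACGTG, both of which read the same on either strand. The first Bcl6 window lies at chr16:23988853-23989102, just before the start of the counted transcript, and the other at chr16:23981284-23981533, before a start site inside the gene. The Prdm1 window lies at chr10:44458749-44458998. None of these windows overlaps an exon of the GENCODE M21 annotation.
Bcl6, counted start: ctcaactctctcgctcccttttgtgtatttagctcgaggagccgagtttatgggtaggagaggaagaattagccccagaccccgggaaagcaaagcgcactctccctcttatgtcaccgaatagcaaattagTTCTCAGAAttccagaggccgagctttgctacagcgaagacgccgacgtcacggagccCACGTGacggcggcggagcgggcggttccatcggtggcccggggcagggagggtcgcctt
Bcl6, internal start: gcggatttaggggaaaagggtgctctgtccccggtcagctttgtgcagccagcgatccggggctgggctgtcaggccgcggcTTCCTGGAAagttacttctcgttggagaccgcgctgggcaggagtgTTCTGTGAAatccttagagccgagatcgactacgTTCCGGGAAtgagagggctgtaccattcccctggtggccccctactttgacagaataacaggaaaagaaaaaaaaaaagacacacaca
Prdm1: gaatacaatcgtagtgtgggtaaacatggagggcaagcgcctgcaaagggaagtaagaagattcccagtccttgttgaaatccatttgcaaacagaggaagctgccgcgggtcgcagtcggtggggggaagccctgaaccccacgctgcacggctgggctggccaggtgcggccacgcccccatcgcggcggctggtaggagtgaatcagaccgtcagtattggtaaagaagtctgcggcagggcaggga

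The counted Bcl6 start held 1 STAT5 palindrome, which began 118 bases before the start site, and 1 E-box, which began 60 bases before it. The internal Bcl6 start held 3 STAT5 palindromes, which began 168, 122 and 88 bases before that site. Of 32817 promoter windows of this length, 7.01% held at least 1 such palindrome and 9 windows, or 0.0274%, held 3 or more, the internal Bcl6 window among them. An E-box occurred in 6.02% of windows. The Prdm1 window held neither motif, and AGTGAAAG, a core of the element bound by Blimp-1, was searched on both strands and occurred in none of the 3 windows and in 1.09% of all windows. These are matches of letters, searched for with the Bcl6 values known, and no binding was measured.

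Libraries held between 22146490 and 31209177 counts. The log2 difference of Stat5a RNA was -1.29 before and -1.15 after commitment, and that of Stat5b -0.86 and -0.89 (edgeR adjusted p of 0.0112, 0.00451, 0.0280 and 0.00876 in that order). Each sgStat5 library lay below each control library for both targets, although a guide can disrupt a gene without lowering its RNA. Replicate numbers recur in every group, and libraries with the same number deviated together from their group means, so each difference was also fitted with the replicate number as a block. Levels below are CPM, the counts scaled to a common library size after TMM normalization, as mean ± SD with n = 2, and differences are log2 values from edgeR with their standard error (SE). A gene is called where its Benjamini-Hochberg adjusted p over all 13775 genes is under 0.05.

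Bhlhe40 RNA was high in control cells and low in sgStat5 cells on both sides of commitment. Pre-commitment control libraries held 26.6 and 23.7 CPM of Bhlhe40 in replicates 1 and 2, and pre-commitment sgStat5 libraries held 7.95 and 6.80 CPM. Post-commitment control libraries held 25.0 and 28.6 CPM, and post-commitment sgStat5 libraries held 7.12 and 9.75 CPM. All 4 control libraries lay above all 4 sgStat5 libraries, with no overlap. The mean went from 25.1 ± 2.04 to 7.37 ± 0.818 CPM before commitment, a level 3.41-fold lower (log2 difference -1.77, SE 0.20), and from 26.8 ± 2.53 to 8.43 ± 1.86 CPM after it, 3.18-fold lower (-1.67, SE 0.20). The drop was -1.74 and -1.80 in the replicate 1 and replicate 2 pairs before commitment, and -1.82 and -1.55 after it. Reads were ample, with 161 to 887 counts per library.

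Bcl6 RNA was low in control cells and high in sgStat5 cells, and among sgStat5 cells it was higher after commitment. Pre-commitment control libraries held 2.64 and 3.79 CPM of Bcl6, and pre-commitment sgStat5 libraries held 8.49 and 11.6 CPM. Post-commitment control libraries held 2.34 and 3.13 CPM, and post-commitment sgStat5 libraries held 21.7 and 16.5 CPM. Each sgStat5 library therefore lay above every control library. The mean went from 3.21 ± 0.817 to 10.0 ± 2.17 CPM before commitment, 3.12-fold higher (log2 difference 1.64, SE 0.30), and from 2.73 ± 0.561 to 19.1 ± 3.69 CPM after it, 7.00-fold higher (2.80, SE 0.32). The replicate pairs gave 1.69 and 1.61 before commitment, close to each other, and 3.22 and 2.40 after it. The raw counts behind these values ran from 61 to 118 in control and from 189 to 492 in sgStat5 libraries.

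Prdm1 RNA was near the limit of detection in every group, with 2 to 44 counts per library. The pre-commitment control libraries held 5 and 15 Prdm1 counts (0.197 and 0.482 CPM), and the pre-commitment sgStat5 libraries held 20 and 2 counts (0.899 and 0.0739 CPM). The post-commitment control libraries held 16 and 8 counts (0.613 and 0.258 CPM), and the post-commitment sgStat5 libraries held 44 and 43 counts (1.94 and 1.54 CPM). The post-commitment sgStat5 libraries had the highest values, above all 6 others. Their 95% exact Poisson intervals on the CPM scale, 1.41 to 2.61 and 1.12 to 2.08 CPM, cover counting error alone, and the interval of pre-commitment sgStat5 replicate 1, 0.549 to 1.39 CPM, overlapped the latter. The other 5 libraries had intervals that ended at 0.995 CPM or lower. Before commitment the replicate pairs moved in opposite directions, 2.19 and -2.71 on the log2 scale, and the fitted difference of 0.49 had an SE of 1.17. After commitment the mean went from 0.435 ± 0.251 to 1.74 ± 0.285 CPM (log2 difference 2.00, SE 1.17), with pairs of 1.67 and 2.58. Prdm1 reached the filter's level of 0.373 CPM in 5 libraries, where 2 were needed, while Bcl6 and Bhlhe40 reached it in all 8.

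**Figure D1:**
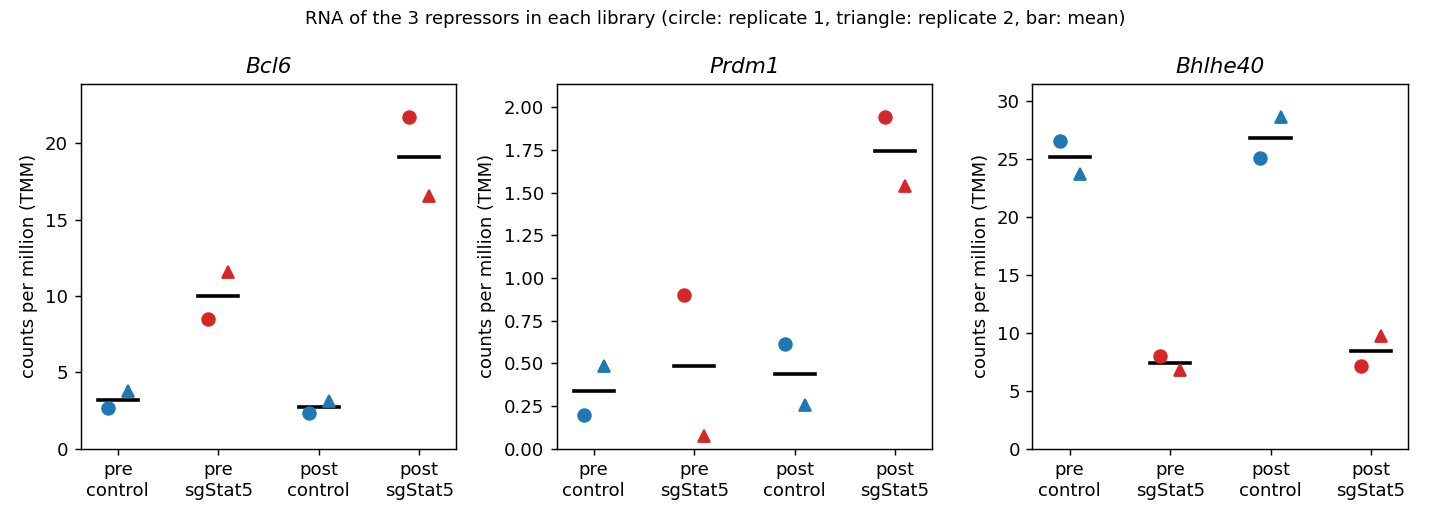
CPM of Bcl6, Prdm1 and Bhlhe40 (y axes, linear from 0, each with its own scale) in the 4 groups (x axis); circles are replicate 1, triangles replicate 2, blue control, red sgStat5, and bars mark group means. Bhlhe40 separates by guide at 6.80 to 9.75 against 23.7 to 28.6 CPM, Bcl6 separates by guide and is highest in post-commitment sgStat5 cells, and Prdm1 exceeds 1 CPM in those cells alone.

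Read against all genes, the calls of the 3 repressors were as follows, and since they were picked with these contrasts known, nothing is read from the counts. Before commitment edgeR called 1 of the 3, Bhlhe40, lower, where 0.269% of all genes were called. With the replicate block 2 of the 3 were called, Bhlhe40 lower and Bcl6 higher, where 2.33% of all genes were. After commitment both fits called Bcl6 higher and Bhlhe40 lower, where 1.71% of genes were called without the block and 8.22% with it. Groups did not overlap for 2 of the 3 before commitment and for 3 of the 3 after it, as for 38.1% and 38.9% of all genes. The pre-commitment call of Bhlhe40 was kept without either post-commitment sgStat5 library and lost without each of the 6 other libraries, while the log2 difference stayed between -1.89 and -1.66. After commitment the call of Bcl6 was lost without control replicate 1 or sgStat5 replicate 1 (log2 differences from 2.59 to 3.04 over the 8 omissions), and that of Bhlhe40 without control replicate 2 or sgStat5 replicate 1 (-1.92 to -1.46).

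Whether the STAT5 effect differed between the stages was fitted as a difference of the 2 effects. For Bcl6 the post-commitment effect exceeded the pre-commitment one by 1.17 on the log2 scale (SE 0.42), for Prdm1 by 1.51 (SE 1.64) and for Bhlhe40 by 0.10 (SE 0.28). None of the 3 was called by edgeR with or without the block, where 0% of genes were called by either fit. At an unadjusted p under 0.05 edgeR had 302 genes, or 2.19% of those tested, of which Bcl6 was 1. DESeq2 called 2 genes, neither of them a repressor of this set. The effects on Bhlhe40 in the 2 stages differed by less than their errors.

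Between the stages of control cells each difference was smaller than its SE. The log2 difference was -0.23 for Bcl6 (SE 0.30), 0.34 for Prdm1 (SE 1.17) and 0.10 for Bhlhe40 (SE 0.19). The libraries of the 2 stages overlapped for each of the 3, while 48.8% of all genes had stages that did not overlap. None of the 3 was called, with 0.0145% of genes called without the block and 10.9% with it, none had an unadjusted p under 0.05, and DESeq2 called none of them. In sgStat5 cells Bcl6 was 1.91-fold higher after commitment (log2 difference 0.93, SE 0.30), and the replicate pairs gave 1.36 and 0.52. The same step gave 1.85 for Prdm1 (SE 1.17) and 0.20 for Bhlhe40 (SE 0.20). The 2 stages of sgStat5 cells did not overlap for Bcl6 and Prdm1, as for 56.2% of all genes, and overlapped for Bhlhe40. Without the block none of the 3 was called, where 0.973% of genes were, although Bcl6 was under an unadjusted p of 0.05. With the block Bcl6 was called, where 22.8% of genes were, and DESeq2 called none of the 3. These stage differences share libraries with the STAT5 effects and are not independent of them.

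The order of levels was thus different for each gene. For Bcl6 it ran from post-commitment sgStat5 to pre-commitment sgStat5 and then to the control groups, which overlapped. For Bhlhe40 the control groups overlapped at the top and the sgStat5 groups overlapped at the bottom. For Prdm1 post-commitment sgStat5 cells were at the top and the other groups overlapped.

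**Figure D2:**
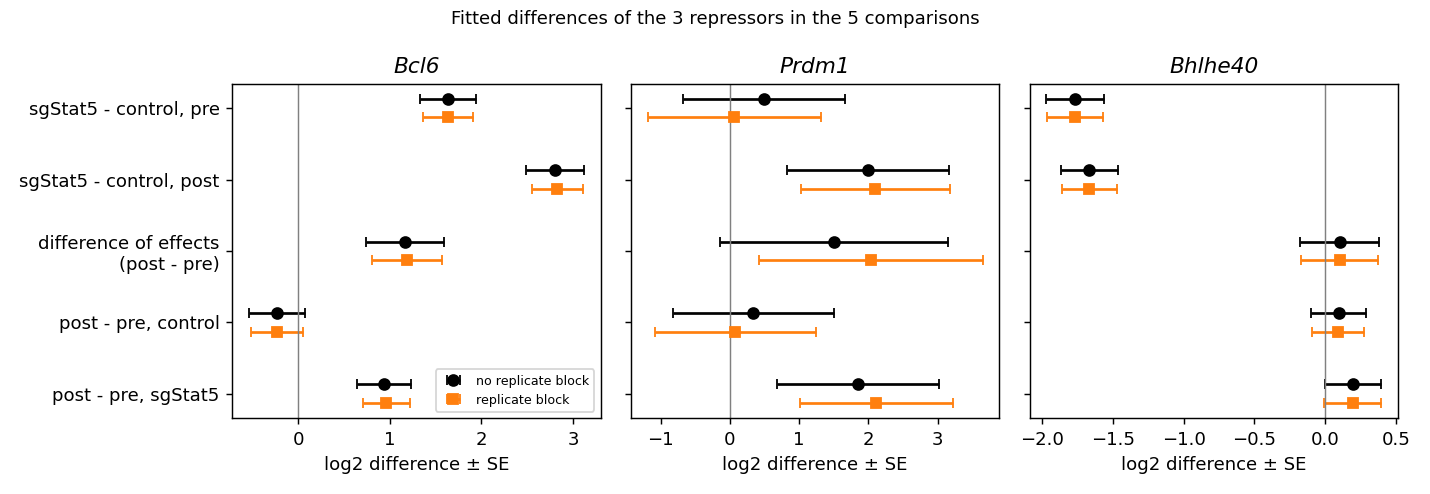
Log2 differences (x axes, with bars of 1 SE) of the 3 repressors in the 5 comparisons (y axis), from edgeR without (black circles) and with (orange squares) the replicate block. Bcl6 lies right of 0 in both STAT5 comparisons (1.64 and 2.80), Bhlhe40 lies left of it in both (-1.77 and -1.67), and the Prdm1 bars are widest.

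Per length of transcript the 3 genes sat at different levels. In the authors' FPKM values, Bhlhe40 averaged 5.78 ± 0.333 and 6.15 ± 0.557 FPKM in pre- and post-commitment control cells, Bcl6 0.657 ± 0.182 and 0.553 ± 0.112 FPKM, and Prdm1 0.0470 ± 0.0283 and 0.0595 ± 0.0346 FPKM. In sgStat5 cells Bhlhe40 stood at 1.71 ± 0.232 and 2.01 ± 0.431 FPKM and Bcl6 at 2.04 ± 0.392 and 4.05 ± 0.809 FPKM. Bhlhe40 was therefore above Bcl6 in every control library. In post-commitment sgStat5 cells Bcl6 was above Bhlhe40 in both libraries, while in pre-commitment sgStat5 cells their ranges overlapped. Prdm1 stayed lowest throughout, at 0.249 ± 0.0424 FPKM in its highest group.

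The counted transcripts were those at chromosome 16, 23965050 to 23988852 (Bcl6, minus strand), chromosome 10, 44437174 to 44458748 (Prdm1, minus strand), and chromosome 6, 108660629 to 108666925 (Bhlhe40, plus strand), in mm10. The GENCODE Prdm1 gene extends to 44528501, so exons upstream of the counted transcript were not part of the count. The antisense gene 0610040F04Rik covers 306 bases at the 5′ end of Bhlhe40 and had 7 to 41 counts per library, against at least 161 for Bhlhe40, and the counting names no strand. Bcl6 overlaps a small gene model on the other strand, Gm37419, over 114 bases.

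Genes with the most similar profiles were found by Pearson correlation of log2 CPM over the 8 libraries, as a description. Bhlhe40 was closest to Fam20a, a secreted-pathway pseudokinase (r = 0.994), Lta, which encodes lymphotoxin alpha (0.990), Tmem108 (0.980), Cdk8, a Mediator kinase (0.978), and Fam19a3 (0.977). Lta went from 8.19 ± 0.219 to 0.848 ± 0.0550 CPM before commitment and from 7.61 ± 1.93 to 0.883 ± 0.374 CPM after it. Fam19a3 had no read in any sgStat5 library. Bhlhe40 was most opposed to Cnot8 (-0.977) and Ripk2 (-0.974). Bcl6 was closest to the class I-like MHC genes H2-Q5 (0.985), H2-Q8 (0.972) and H2-Q6 (0.972), which are paralogs that can share reads, to the adhesion gene Alcam (0.974) and to Mpeg1, which encodes perforin-2 (0.972). H2-Q5 went from 67.3 ± 9.29 to 181 ± 21.4 CPM after commitment. Bcl6 was most opposed to Agps (-0.991) and Ifitm2 (-0.989). Bcl6 and Bhlhe40 themselves correlated at -0.923, and libraries of both guides in both stages set this value. For Prdm1 the closest genes were Snapc3 (0.966), Fkbpl (0.952), Prr7 (0.946), 4930579K19Rik (0.945) and Trim69 (0.944), and the most opposed were Ywhaq (-0.964) and Sv2c (-0.955), but at these counts a profile of Prdm1 carries much counting error.

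Relatives, partners and targets of the 3 repressors are given below as gene lists, whose counts are to be read against all 13775 genes. DESeq2, which was run on every gene with any count and applied its own filter, called 247 before and 609 after commitment. Of the 13775 genes, 6.44% before and 12.4% after commitment had an unadjusted p under 0.05 in edgeR. Without the block edgeR called 0.269% and 1.71% of them, and with it 2.33% and 8.22%. Lists of this size with 0 calls are therefore close to that background. Among 25 tested genes of the BTB zinc-finger family other than Bcl6, edgeR called 0 before and 0 after commitment, with 0 and 5 at an unadjusted p under 0.05 and 0 by DESeq2. The family medians were 0.05 and 0.06, beside -0.00012 and -0.02 over all genes. With the block 1 rose after commitment, Patz1, a broadly expressed repressor (0.31, SE 0.08, blocked adjusted p = 0.0391; 0.470 without the block). Zbtb16, which encodes PLZF, an innate lymphoid factor, fell with commitment in control cells in the blocked fit (log2 difference -1.61, SE 0.28, adjusted p = 0.0112; 0.213 without the block), from 51.3 ± 0.475 to 17.6 ± 10.6 CPM. It also fell in sgStat5 cells in the blocked fit, from 68.7 ± 2.86 to 34.5 ± 8.57 CPM (-0.99 without the block, not called). By FPKM Bcl6 was 21st of 29 family genes in pre-commitment control cells, 20th in post-commitment control cells, and 16th in post-commitment sgStat5 cells, where Patz1 led at 61.3 FPKM.

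Of 9 tested PRDM genes 0 were called before or after commitment, with 0 and 1 at an unadjusted p under 0.05, and 0 with the block or by DESeq2 (medians 0.10 and 0.19). Prdm4 and Prdm2 were the most abundant family members in every group, and Prdm1 stood 8th or 9th of 15. Of 7 tested relatives of Bhlhe40 in the BHLHE, HES and HEY family edgeR called 0 in either stage, with 1 in each at an unadjusted p under 0.05 (medians -0.11 and 0.44). DESeq2 called 0 and 1. With the block Hes1, a Notch target, rose after commitment, from 52.1 ± 4.21 to 77.9 ± 7.95 CPM (0.58, SE 0.11, blocked adjusted p = 0.0144; 0.152 without the block). By FPKM Bhlhe40 was the third or the fourth of these 11 genes in each group, and Hes6 and Hes1 were the most abundant.

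Corepressors that the 3 proteins are known to recruit ranged from scarce to abundant. Hdac9 averaged 0.111 to 0.926 FPKM over the 4 groups, while Ncor1 averaged 30.6 to 35.6 FPKM, Hdac3 32.1 to 34.7, Hdac1 83.6 to 93.6 and Bcor 9.75 to 11.6 FPKM. Of 20 corepressor genes edgeR called 0 in either STAT5 comparison, with 0 and 4 at an unadjusted p under 0.05 and 0 and 1 by DESeq2 (medians -0.11 and -0.01). With the block 2 rose and 1 fell after commitment, among them Tle1, a Groucho-family corepressor that fell by 1.27 (SE 0.19, blocked adjusted p = 0.00412; 0.118 without the block), from 14.0 ± 2.67 to 5.84 ± 1.88 CPM. In the authors' FPKM values Tle1 went from 2.70 ± 0.848 to 1.53 ± 0.301, a smaller fall in proportion. Hdac7 rose by 0.40 in the blocked fit (SE 0.09, blocked adjusted p = 0.0298; 0.808 without the block), and without the block its difference ran from -0.035 to 0.85 over the omissions of a library, turning in sign without post-commitment sgStat5 replicate 1. Across commitment in sgStat5 cells 1 rose, Hdac9 (3.01, SE 0.49, edgeR adjusted p = 0.0486), from 0.681 ± 0.180 to 5.51 ± 1.79 CPM, where 0.973% of all genes were called. With the block 4 rose and 4 fell there, beside 22.8% of all genes, among those that rose the class IIa deacetylases Hdac7 (1.09, blocked adjusted p = 0.000214; 0.195 without the block) and Hdac4 (0.81, blocked adjusted p = 0.00340; 0.0819 without the block). Without the block Hdac9 kept its call in 2 of the 8 fits that omit a library, with log2 differences from 2.63 to 3.31. In control cells Hdac7 and Hdac4 also rose with commitment in the blocked fit, beside 10.9% of all genes. Their rise there was 0.59 and 0.67 without the block, and not called. Hdac9 went from 0.779 ± 0.0112 to 2.25 ± 0.422 CPM in control cells, not called by edgeR with or without the block.

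Genes that BCL6 represses in B cells changed in both directions. Of 15 tested, 0 were called before commitment, with 5 at an unadjusted p under 0.05 (6.44% of all genes) and 5 by DESeq2 (247 of the genes it was run on), and 2 rose and 2 fell with the block (2.33% of all genes were called; median -0.04). After commitment 2 rose and 2 fell, beside 1.71% of all genes, and with the block 2 rose and 4 fell, beside 8.22% (median -0.20, beside -0.02 over all genes). There 9 of the 15 had an unadjusted p under 0.05, beside 12.4% of all genes, and DESeq2 called 6 (609 of the genes it was run on). The interferon-inducible chemokine Cxcl10 rose from 0.423 ± 0.0511 to 7.87 ± 6.26 CPM after commitment (4.21, SE 0.74, edgeR adjusted p = 0.0447). Bcl2, a survival gene, fell from 400 ± 18.9 to 118 ± 34.8 CPM (-1.76, SE 0.30, edgeR adjusted p = 0.0400), and all of these mice carry a Bcl2 transgene, whose share of the count was not tested. Nfkb1 fell by 0.55 (SE 0.09, edgeR adjusted p = 0.0371). Cd44 did not pass in either STAT5 comparison (0.27 and -0.47). Over the 8 omissions of a library Cxcl10 kept its call in 1 fit (3.01 to 4.85), Bcl2 in 2 (-2.10 to -1.49) and Nfkb1 in 0 (-0.64 to -0.45).

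Of 8 tested genes that Blimp-1 represses in lymphocytes edgeR called 0 in either stage, with 1 and 2 at an unadjusted p under 0.05 (6.44% and 12.4% of all genes) and 0 and 2 by DESeq2 (medians -0.11 and 0.27). With the block 2 rose after commitment, beside 8.22% of all genes called. Ciita, the master activator of MHC class II genes, went from 0.627 ± 0.345 to 8.70 ± 0.986 CPM (3.92, SE 0.46, blocked adjusted p = 0.00101; 0.0643 without the block), and Tcf7, a T-lineage factor, rose by 0.39 (SE 0.06, blocked adjusted p = 0.00372; 0.109 without the block). Spib and Id3 were not called in either STAT5 comparison. Both rose with commitment in sgStat5 cells in the blocked fit, Spib by 4.01 (blocked adjusted p = 0.00220; 0.0907 without the block) and Id3 by 2.68 (blocked adjusted p = 0.000642; 0.120 without the block). Both were also called higher with commitment in control cells in the blocked fit, beside 10.9% of all genes. Without the block the rise in control cells was 2.65 for Spib and 1.33 for Id3, and neither was called. Of 8 tested genes under BHLHE40 or the circadian clock 0 were called in either STAT5 comparison with or without the block or by DESeq2, with 1 in each at an unadjusted p under 0.05, again beside 6.44% and 12.4% of all genes (medians -0.31 and -0.06). Per2, a clock gene, stood at 11.9 ± 0.183 and 12.7 ± 1.09 CPM in control and sgStat5 cells before commitment and at 6.69 ± 0.529 and 7.02 ± 1.43 CPM after it. The fall of Per2 with commitment passed in both guide arms in the blocked fit alone (-0.83 in control and -0.86 in sgStat5 cells, blocked adjusted p = 0.0376 and 0.0193; 0.218 and 0.0903 without the block).

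Of 20 lymphocyte factors that act with or against Bcl6 and Prdm1, 1 fell before commitment and 3 rose and 1 fell after it, where 0.269% and 1.71% of all genes were called. With the block 2 rose and 2 fell before commitment and 9 rose and 1 fell after it, where 2.33% and 8.22% of all genes were called (medians 0.12 and 0.38, beside -0.00012 and -0.02 over all genes). At an unadjusted p under 0.05 were 5 and 9 of the 20, beside 6.44% and 12.4% of all genes. DESeq2 called 3 and 7 of the 20, and 247 and 609 of the genes it was run on. Xbp1, a secretory-pathway factor that acts downstream of Blimp-1 in plasma cells, fell in both stages. It went from 273 ± 15.6 to 150 ± 21.9 CPM before commitment (-0.86, SE 0.11, edgeR adjusted p = 0.0411) and from 365 ± 1.36 to 149 ± 1.03 CPM after it (-1.29, SE 0.11, adjusted p = 0.00451). The latter call was kept without each of the 8 libraries in turn, whereas the 10 other calls made without the block among these lists were each lost without at least 1 library. That of Xbp1 before commitment was kept in 0 of the 8 fits (-1.02 to -0.72). Irf8, an interferon-regulated factor, rose from 8.08 ± 1.08 to 22.8 ± 2.18 CPM after commitment (1.50, SE 0.24, edgeR adjusted p = 0.0329), and Stat3, which induces Bcl6 downstream of IL-6 and IL-21, rose from 238 ± 2.23 to 345 ± 9.78 CPM (0.53, SE 0.08, adjusted p = 0.0216). With a library omitted Irf8 kept its call in 2 of 8 fits (1.38 to 1.62) and Stat3 in 0 (0.50 to 0.56). Lef1, a partner of Tcf7, fell before commitment in the blocked fit alone, from 30.0 ± 10.5 to 7.65 ± 2.52 CPM (-1.99, SE 0.30, blocked adjusted p = 0.0111; 0.704 without the block). Bach2, a repressor of Prdm1 in B cells, did not pass in either STAT5 comparison (-0.36 and 0.03), and rose with commitment in sgStat5 cells (1.55, SE 0.25, edgeR adjusted p = 0.0486), a call kept in 2 of the 8 omissions (1.42 to 1.69). Control cells had a rise of Bach2 as well, from 14.1 and 9.32 to 30.2 and 22.2 CPM. That rise, 1.16 without the block, was called in the blocked fit alone, beside 10.9% of all genes.

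**Figure D3:**
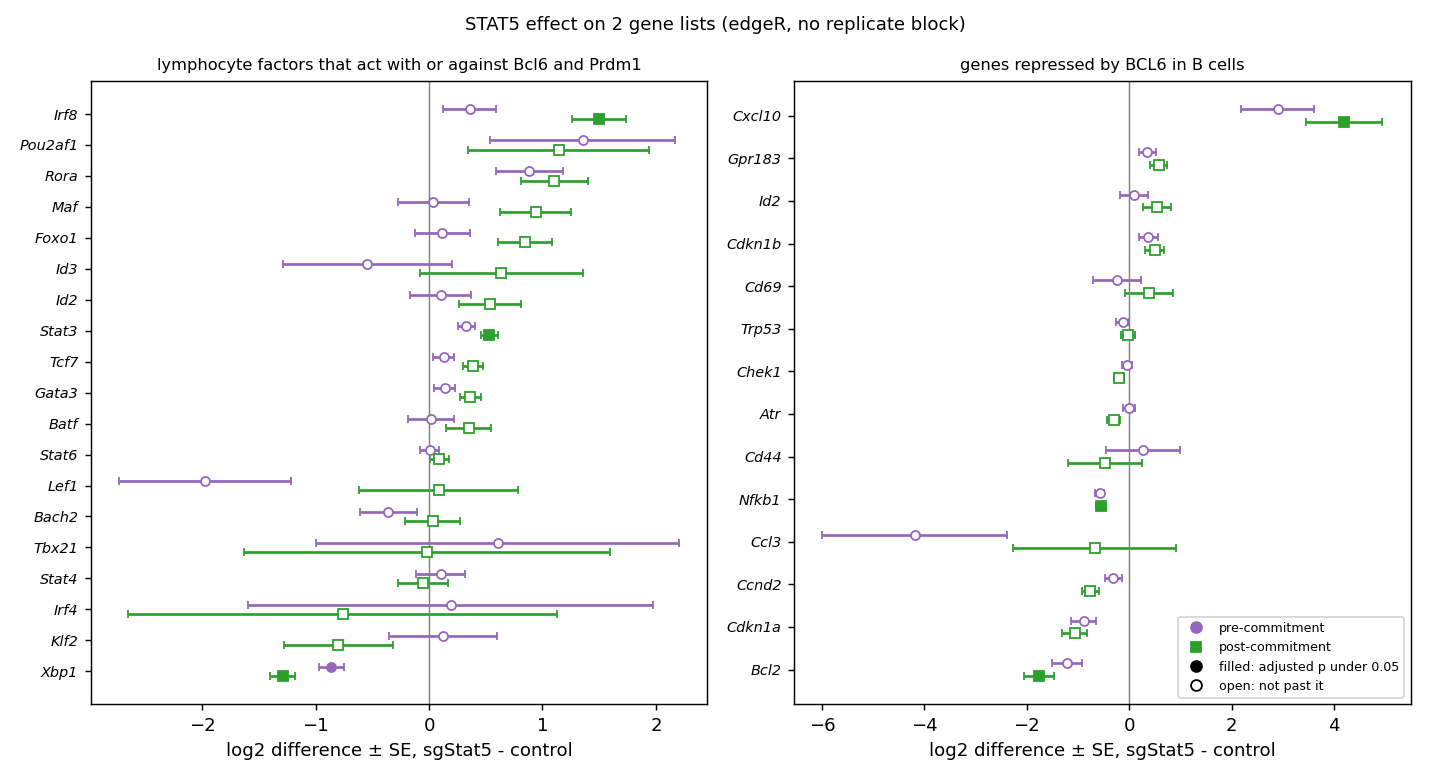
Log2 differences between sgStat5 and control cells (x axes, with bars of 1 SE) for 19 lymphocyte factors (left) and 14 genes that BCL6 represses in B cells (right), in pre-commitment (purple circles) and post-commitment cells (green squares). Filled symbols have an edgeR adjusted p under 0.05 without the block. Xbp1 is filled in both stages, and Irf8, Stat3, Cxcl10, Nfkb1 and Bcl2 after commitment alone, which is no test of a difference between stages.

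Markers of other cells that could carry these RNAs were measured as well, and in bulk RNA fewer cells of a type cannot be told apart from less RNA per cell. T-lineage markers were detected in every group, and their summed level was 4165 to 4292 CPM in pre-commitment sgStat5 libraries, lowest of the 4 groups, and 6078 to 7775 CPM in post-commitment control libraries. Most of the lower sum was Il2ra, which encodes CD25, at 3152 and 2887 CPM in pre-commitment control and 1980 and 2155 CPM in pre-commitment sgStat5 libraries, and Thy1 (584 and 496 against 291 and 252 CPM). Tcf7 was at 1139 and 1115 against 1275 and 1186 CPM and Gata3 at 136 and 133 against 158 and 138 CPM, the other way. B-cell markers summed to 6.77 to 17.1 CPM over all libraries, with Ms4a1 at 0 in each and Pax5 at 0 in 7 of 8. Of 13 myeloid and dendritic markers the sum was 34.0 to 79.7 CPM in post-commitment control and 27.9 to 63.5 CPM in post-commitment sgStat5 libraries, which overlapped, and 162 to 192 CPM in pre-commitment control against 173 to 176 CPM in pre-commitment sgStat5 libraries. Members of this list went both ways. Itgam was higher in sgStat5 libraries, at 2.60 and 3.34 against 4.90 and 6.28 CPM before commitment. After commitment Itgam was at 1.65 and 2.71 against 3.36 and 3.87 CPM. Before commitment Mpo was at 21.7 and 17.8 in control against 55.8 and 32.1 CPM in sgStat5 libraries. Fcer1g went the other way there, at 87.4 and 113 against 61.4 and 77.5 CPM. Mpo and Fcer1g overlapped between guides after commitment. The 10 NK and innate lymphoid markers summed to 1008 to 1563 CPM in post-commitment control and 1828 to 2130 CPM in post-commitment sgStat5 libraries, most of it Gzma. In post-commitment control and sgStat5 libraries Zbtb16 stood at 10.1 and 25.1 against 28.5 and 40.6 CPM. Nkg7 went the other way after commitment, at 123 and 127 CPM in control against 90.2 and 116 CPM in sgStat5 libraries. Before commitment its levels overlapped, at 120 and 117 against 123 and 116 CPM. Klrd1 was at 0 to 9.26 CPM over all 8 libraries, Il1rl1 reached 1.53, Ncr1 1.48, Eomes 1.06, Klrb1c 0.960 and Prf1 0.514 CPM at most. The 9 mast-cell, basophil and erythroid markers summed to 341 to 403 and 514 to 555 CPM in the same groups, and to 910 to 1150 and 1169 to 1547 CPM in pre-commitment control and sgStat5 libraries, most of it Cpa3, Hbb-bs and Itga2b. Within each stage this sum was higher in the sgStat5 libraries, as Bcl6 was, and the NK sum was so after commitment alone, while the pre-commitment NK sums overlapped (1386 to 1698 and 1557 to 1704 CPM). Members of the mast-cell, basophil and erythroid list did not all follow their sum. Between guides Cpa3 overlapped before commitment, Hbb-bs after it and Itga2b in both stages. Mcpt8 was lower in pre-commitment sgStat5 libraries, at 12.8 and 15.1 against 20.9 and 24.0 CPM in control. The part of such cells in these results was not tested. The 12 stromal markers summed to 113 to 603 CPM and overlapped between guides in each stage. In every group Col1a1 was higher in replicate 2, while Pdgfrb was lower there. Before commitment Col1a1 was at 7.99 and 50.3 CPM in control and 0 and 36.2 CPM in sgStat5 replicates 1 and 2. After commitment it was at 28.9 and 83.0 against 29.2 and 76.3 CPM. Cd3e was higher in replicate 1 of every group, at 19.1 to 237 against 3.73 to 29.7 CPM. What set the replicates apart was not tested.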

How the data were processed

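RNA was sequenced from 8 libraries in 4 groups of 2, assigned from the labels alone. Tools listed in the submitters' processing notes are STAR 2.4.0, RSEM 1.2.25 and bcl2fastq 1.8.4, with the GRCm38/mm10 build. The deposited counts are, per the file headers, raw exon tags of 1 RefSeq transcript per gene from HOMER's analyzeRepeats, and the authors' FPKM values come from the same program per kilobase and library. Here counts were fitted with edgeR 4.0.16 in R 4.3.3: filterByExpr (13775 genes), TMM, 1 mean per group over all 8 libraries, and a two-sided quasi-likelihood F-test with Benjamini-Hochberg adjustment. SE is the absolute log2 difference over the square root of F. Replicate 1 deviations from group means correlated between groups across genes (6 coefficients, 0.421 to 0.578), so the replicate number was also fitted as a block. The common dispersion was 0.0853 without and 0.0178 with it, on 4 and 3 residual degrees of freedom. Alternatives were DESeq2 1.42.0, RLE scaling, other filters, limma 3.58.1 on log2 FPKM and omission of each library. Up to 4 genes per list were named by the smallest blocked adjusted p, and Nfkb1, Irf8 and Stat3, and the marker genes quoted, were added after their values were seen. The closest profiles were the 5 highest and 2 lowest correlations. The 3 repressors and the gene lists were chosen with earlier results of these data known. Intervals cover counting error only, and each p-value reflects only how far these samples spread, which may be technical. Genes counted in a list but neither named nor drawn are not reported here.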

Additional observations from a re-analysis of the deposited data

How the results depend on the processing

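With the replicate block Bcl6 became called before commitment (log2 difference 1.64) and across commitment in sgStat5 cells (0.96), so that 2 and 1 of the 3 repressors were called, and DESeq2 called Bcl6 before commitment (1.64; 2 of 3). No other call of the 3 changed with the block. Omitting each library in turn gave 1.39 to 1.93 for Bcl6, -1.89 to -1.66 for Bhlhe40 and -2.14 to 1.38 for Prdm1 before commitment, with 0 to 1 called, and 2.59 to 3.04, -1.92 to -1.46 and 1.51 to 2.71 after it, with 0 to 2 called. In control cells the stage difference ran from -0.49 to 0.058 for Bcl6, -0.39 to 1.117 for Prdm1 and -0.026 to 0.20 for Bhlhe40, and in sgStat5 cells from -0.050 to 0.40 for Bhlhe40. The difference between effects ran from -0.15 to 0.31 for Bhlhe40. The sign thus turned without pre-commitment control replicate 1 for Prdm1 before commitment (-0.01) and across commitment in control cells (-0.17), without pre-commitment control replicate 2 for Bcl6 across it (0.058), without post-commitment control replicate 1 for Prdm1 across it (-0.39), without post-commitment control replicate 2 for Bhlhe40 across it (-0.026), and without pre-commitment sgStat5 replicate 1 for Prdm1 before commitment (-2.14). The difference between effects of Bhlhe40 turned without post-commitment control replicate 1 (-0.0041), pre-commitment sgStat5 replicate 2 (-0.0057) or post-commitment sgStat5 replicate 2 (-0.15), the last also turning its stage difference in sgStat5 cells (-0.050), and Hdac7 after commitment, from -0.035 to 0.85, turned without post-commitment sgStat5 replicate 1 (-0.035). The cause was not tested. On log2(FPKM + 1) the STAT5 effects on Bcl6 were 0.88 and 1.69, since a pseudocount shrinks low genes. Prdm1 failed the filters of FPKM of at least 0.5 and CPM of at least 5. Its depth of 2 to 44 counts limits every statement on it.

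Counts of all genes called before commitment were 37, and 321 with the block, 247 by DESeq2 and 114 with no filter. After commitment they were 235, 1132 with the block and 609 by DESeq2. Across commitment they were 2 in control cells (1507, 552 and 83 in the same 3 alternatives) and 134 in sgStat5 cells (3144, 1623 and 760, and 231 with CPM of at least 5), and for the difference between effects 0, with 2 by DESeq2. Omitting a library gave 0 to 30, 63 to 151, 0 to 32, 0 to 529 and 0 to 0 in these comparisons, in that order.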
